A study of Arabidopsis thaliana with 40 samples.

Results

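Genes encoded in the chloroplast and mitochondrial genomes of Arabidopsis thaliana were followed in root and shoot libraries of 5 genotypes. They were taken by locus code: 88 rows with an ATCG code (chloroplast) and 122 rows with an ATMG code (mitochondrion), 210 of the 27655 transcripts listed in each library's table. The groups, each with 4 root and 4 shoot libraries, were taf12-t1 (T-DNA line WiscDsLoxHs044_12E of TAF12), nbr6-t1 (T-DNA line GABI_172C03 of TAF12B, the paralog of TAF12 in the general transcription factor TFIID), nobiro6 (a suppressor mutation in the bz1728 background), bz1728 (T-DNA alleles SALK_004048 and SALK_132285 combined, which hit BZIP17 and BZIP28, transcription factors of the unfolded protein response) and the Col-0 wild type (wt). Seeds spent 3 d at 4 °C, and seedlings were then kept in 16 h days at 22 °C and 65% humidity. One label states an age of 12 d and another 13 days after sowing. The labels do not say whether replicates were separate cultures, so the p-values measure the spread between these libraries, which may be technical. Each T-DNA line is 1 insertion allele.

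The chloroplast genome encodes core subunits of both photosystems, the cytochrome b6f complex, the ATP synthase and the NDH complex of the thylakoid membrane, the large subunit of Rubisco, part of the plastid ribosome and the core of a bacterial-type RNA polymerase (PEP). PEP needs nuclear-encoded sigma factors, and a phage-type nuclear-encoded polymerase (NEP) transcribes a further set of genes, among them accD, ycf2 and the rpoB operon. Most plastid genes lie in clusters that are transcribed together and then cut, spliced and trimmed. The mitochondrial genome encodes subunits of the respiratory chain and its ATP synthase, proteins of cytochrome c maturation and some ribosomal proteins, and is transcribed by phage-type polymerases. In plant organelles a poly(A) tail marks an RNA for decay, whereas it stabilises nuclear mRNA.

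Libraries held 2663664 to 8201232 expected counts in root and 3423487 to 12896653 in shoot. In shoot, every wt library was deeper than every mutant library. The lowest wt shoot library held 7575174 expected counts and the highest mutant shoot library, of bz1728, held 6763779. Depth and genotype are therefore not separable between wt and the mutants in shoot, and the part of depth in those comparisons was not tested. Chloroplast genes took 8467 to 28679 counts per root library and 90424 to 410450 per shoot library. Mitochondrial genes took 331 to 1089 counts per root library and 479 to 1394 per shoot library, so a single mitochondrial gene rested on few counts. BZIP28 averaged 13.9 ± 3.32 CPM (counts scaled to a library of 1e+06) in root and 26.9 ± 3.26 CPM in shoot of the libraries labelled nobiro6 (SD, n = 4), a line described as made in bz1728, whose own libraries had no BZIP28 counts. BZIP17 averaged 4.85 ± 1.48 CPM in the root libraries labelled nobiro6, 5.55 ± 1.15 CPM in bz1728 roots and 51.7 ± 2.69 CPM in wt roots. TAF12B was lower in shoot libraries labelled nbr6-t1, with 14.2 ± 2.39 CPM against 48.7 ± 5.07 CPM in wt, but not in root libraries labelled nbr6-t1, with 58.8 ± 4.8 CPM against 53.1 ± 5.32 CPM in wt. TAF12 averaged 20.6 ± 3.89 CPM in taf12-t1 roots against 10.2 ± 0.512 CPM in wt roots, and 6.97 ± 1.55 CPM in taf12-t1 shoots against 9.95 ± 0.975 CPM in wt shoots. The deposited values do not say which part of these transcripts the reads cover, so directions drawn from nobiro6, nbr6-t1 and taf12-t1 rest on the libraries' labels. The 7 root markers summed to 4965 to 9070 CPM over all root libraries and 87 to 865 CPM over all shoot libraries, and the 9 shoot markers to 50 to 282 CPM in root and 10620 to 22564 CPM in shoot. Of the shoot markers, 4 averaged under 1 CPM in every root group.

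Coding sequences of the same length in the RefSeq annotation, or their exons or other in-frame starts, gave names and sequences to 86 chloroplast rows; 35 mitochondrial rows were named and 27 matched in sequence. The chloroplast copies of rps7, rps12, rpl2, rpl23, ndhB and ycf2 in the inverted repeat had identical counts in every library, because reads from them cannot be told apart, and each copy is a row of its own in the counts of genes below. All 31-mers of ycf1.1, the partial copy of ycf1, also occur in the full-length ycf1.2, and ycf1.1 was listed at 0 in all 40 libraries. Of the 27 mitochondrial rows with a sequence, 18 had the greater part of their 31-mers in nuclear transcripts, mostly of locus codes beginning with AT2G07, and 5 shared none. For atp1, the alpha subunit of the mitochondrial ATP synthase, 99% of the 31-mers were in nuclear AT2G07698, and the row averaged 30.6 counts per library against 38.8 for the nuclear row. For cob, cytochrome b of complex III, all 31-mers were in AT2G07727, and the averages were 0.323 and 25.9 counts. The split between such rows is an estimate, so a low value there need not be a low RNA level.

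Chloroplast rows differed far more from each other within a library than between genotypes. Per length of the deposited transcript, psbM (photosystem II, 105 bases) stood highest in wt shoots, at 22017 CPM per kilobase, and its mean TPM over the 20 shoot libraries was 75029. Next in wt shoots came rpl16 at 4804, rpl14 at 4407 and rpl36 at 4241 CPM per kilobase, all in the ribosomal protein cluster that also holds rpoA. By mean TPM over the 20 shoot libraries the order was different. There rpl32, which lies outside that cluster, came second at 39860, above rpl36 at 13356 and rpl16 at 10003. Values per length are less certain for a row as short as psbM. The following sequences from RefSeq (assembly TAIR10.1, coding strand) show psbM whole, with start and stop codon in capitals, and 30-base windows around the longest run of A, in capitals, in rows of very different level.
psbM: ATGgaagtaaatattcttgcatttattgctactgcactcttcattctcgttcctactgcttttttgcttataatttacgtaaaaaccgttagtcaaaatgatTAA
psbM after the stop codon: ttactatcAAAAAAAAAAAAAgatttcaat
atpB: tcgatacgtgAAAAAAAAAAcctgggacgt
rpoA: aacctaagAAAAAAAAAAAAAAcaaaagaa
ycf1.2: aaatggagAAAAAAAAAAAAAtactcttta
accD: tttttgatAAAAAAAAAAAAAtttttgaga
rpoC2: gagtagagAAAAAAAAAAAAAggattgaac
psbA: ataactagcactgAAAAccgtctttacatt
rbcL: gggttatccgcgAAAAActatggtagagca

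Coding sequences with a long run of A stood at both low and high levels. Runs outside coding sequences, such as the one after the psbM stop codon, were not counted. The motif AAAAAAAAAA on the coding strand, or a longer run of A, was found in 7 of 80 chloroplast coding sequences with inverted-repeat copies taken once (8.75%). In wt shoots these 7 ranged from accD at 1.79 CPM per kilobase, with a run of 13, and rpoC2 at 8.59, with a run of 13, to rpoA at 1141, with a run of 14, and atpB at 2093, with a run of 10, apart from ycf1.1 at 0. With ycf1.1 at 0 counted, their median was 15.4 CPM per kilobase, the value of rpoB, against 109 for the other sequences. The next value above it was 567, of ycf1.2, so this median depends on whether ycf1.1 is counted. The RNA selection used for the libraries is not given in the sources used here, and its part in these levels was not tested.

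Several groups of neighbouring genes had like levels (plot of levels along the chloroplast genome). The ATP synthase pair atpB and atpE, which code for the beta and epsilon subunits, stood at 2093 and 2357 CPM per kilobase in wt shoots. The genes psbD, psbC and psbZ (D2, the inner antenna CP43 and a small subunit of photosystem II) stood at 970, 659 and 706. Along the direction of transcription from ycf1.2 at 567, the level was 669 for rps15 and then lower gene by gene, with 396 for ndhH, 309 for ndhA, 138 for ndhI, 118 for ndhG, 115 for ndhE, 110 for psaC and 50.6 for ndhD. By contrast psbA (the D1 protein of photosystem II) stood at 31.1, rbcL (the large subunit of Rubisco) at 48.4, psbB (CP47) at 30.9, and psaA and psaB (the photosystem I core) at 16.8 and 18.1 CPM per kilobase. Among the lowest rows with counts in wt shoots were ycf2 at 0.96, accD (a subunit of acetyl-CoA carboxylase) at 1.79, rps16 at 3.12 and ccsA at 3.87 CPM per kilobase. In wt shoots the 26 plastid ribosome rows took 52.4% of the chloroplast counts, the 15 photosystem II rows 13.7%, the 6 ATP synthase rows 12.5% and the 12 NDH rows 7.02%. In wt roots the same groups took 55.3%, 3.47%, 4.45% and 6.87%.

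**Figure D1:**
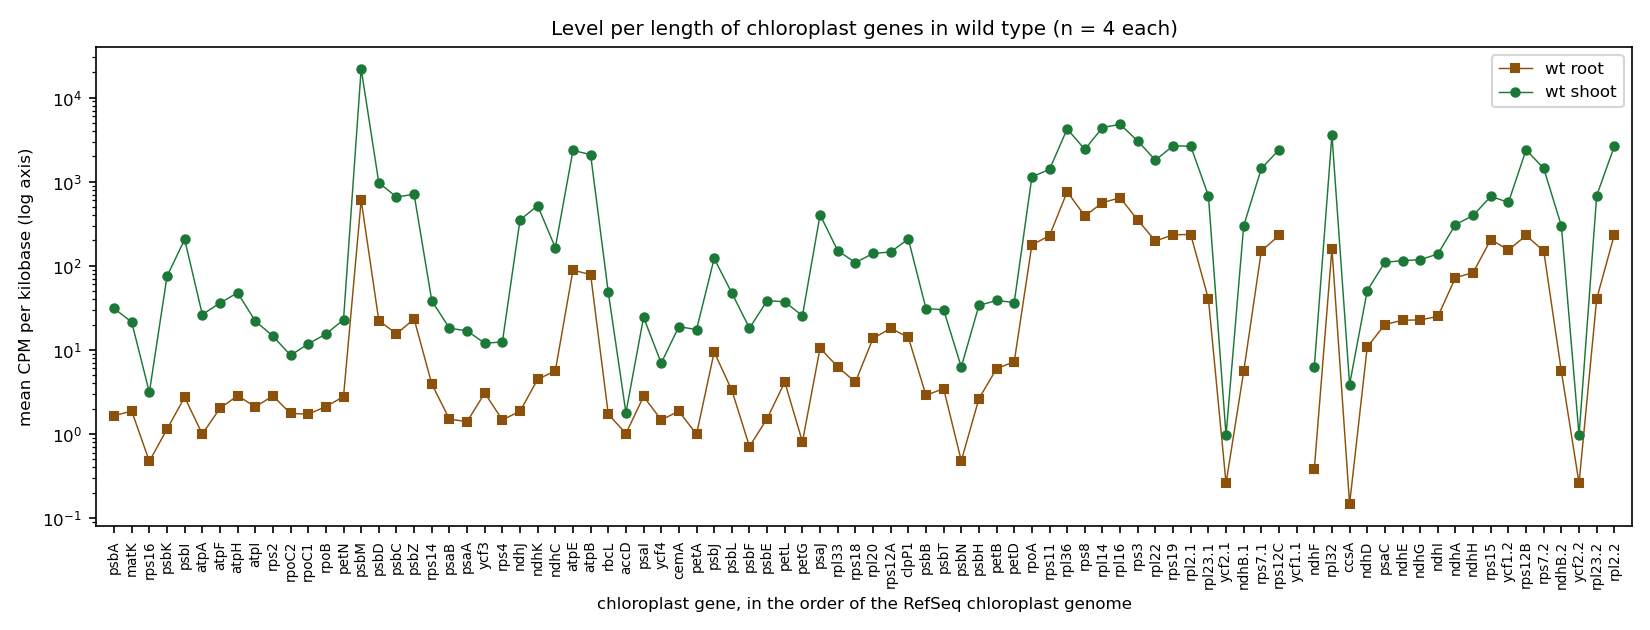
Mean CPM per kilobase (log axis) of each chloroplast gene in wt root (squares) and wt shoot (circles), 4 libraries each, in the gene order of the RefSeq chloroplast genome; ycf1.1 is at 0 and not drawn. psbM at 22017 and the cluster from rpoA to rpl2.1 stand above psbA at 31.1 and rbcL at 48.4 in wt shoot.

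Every one of the 83 chloroplast genes tested was lower in wt roots than in wt shoots. That is 100% of them, against a background of 39.8% of all 20015 genes called lower and 79% called in either direction. Their median log2 fold change was -4.04 against -0.01 for all genes. Only 49 chloroplast rows passed the filter on low counts in root alone, against 83 in shoot. The remaining rows entered through the shoot libraries, where they are high, so the filter largely set their direction. The same rows are among those tested below for differences between tissues. The chloroplast share of counts averaged 0.352% ± 0.0172 in wt roots and 3.28% ± 0.188 in wt shoots (SD, n = 4 each). In bulk tissue, fewer plastids or plastid-rich cells and less RNA in each cannot be told apart. Scaled to the chloroplast total instead, which moved the median of all genes from -0.01 to 3.85, 23 of the genes were higher and 31 lower in wt roots relative to that total.

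The size of the root deficit differed between genes. ndhK, an NDH subunit, averaged 2.44 ± 0.623 CPM in wt roots and 443 ± 36.7 CPM in wt shoots (log2 fold change -7.43 ± 0.14 SE, edgeR adjusted p = 2.5e-38). ycf1.2, which codes for a protein of the inner envelope, averaged 666 ± 40.4 CPM in wt roots and 3827 ± 299 CPM in wt shoots (-2.52 ± 0.08, adjusted p = 1.1e-29). It took the largest part of the chloroplast counts in roots, 24.8% on average over 20 libraries, and 10.6% in shoots. The smallest difference was that of accD, with 1.2 ± 0.319 CPM in wt roots and 3.31 ± 0.675 CPM in wt shoots (-1.47 ± 0.34, adjusted p = 0.00014), a call that limma on TPM did not keep (-0.33). atpB differed by -5.38, psbM by -5.83, rbcL by -5.42, psbA by -4.80, rps7.1 by -3.90 and rps15 by -2.35 on the log2 scale. All 6 sigma factor genes and all 3 phage-type polymerase genes were also lower in wt roots, with medians of -3.82 and -1.51, and the 7 nuclear partner subunits of plastid complexes had a median of -8.71.

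In bz1728, chloroplast genes that passed the test were lower in root, and all but 2 of them were lower in shoot. In root, 35 of the 49 genes tested were lower and none was higher, against a background of 20.7% called lower and 38.9% called in all among 18745 genes. With inverted-repeat copies taken once, 30 of 44 were lower. All 49 had a log2 fold change below 0, with a median of -0.53 against 0.02 for all genes. In shoot, 35 of 83 were lower and 2 higher, against a background of 9.42% lower, 8.4% higher and 17.8% in all among 17382 genes, with a median of -0.30 against 0.00. The chloroplast share of counts was 0.24 to 0.288% in bz1728 roots against 0.336 to 0.372% in wt roots, and 2.64 to 2.89% in bz1728 shoots against 3.1 to 3.53% in wt shoots, without overlap in either tissue. Mean shares in shoot were 3.28% in wt, 2.73% in bz1728, 2.8% in nobiro6, 2.86% in nbr6-t1 and 2.96% in taf12-t1. The wt shoot libraries also stood apart from all of these mutants in depth. Scaled to the chloroplast total, which put the median of all genes at 0.43 in root and 0.34 in shoot, 2 genes were higher and 11 lower in root, and 20 higher and 13 lower in shoot. The split in shoot thus depends on the scale, whereas the genes named next as lower kept their direction under each whole-library scaling tried.

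**Figure D2:**
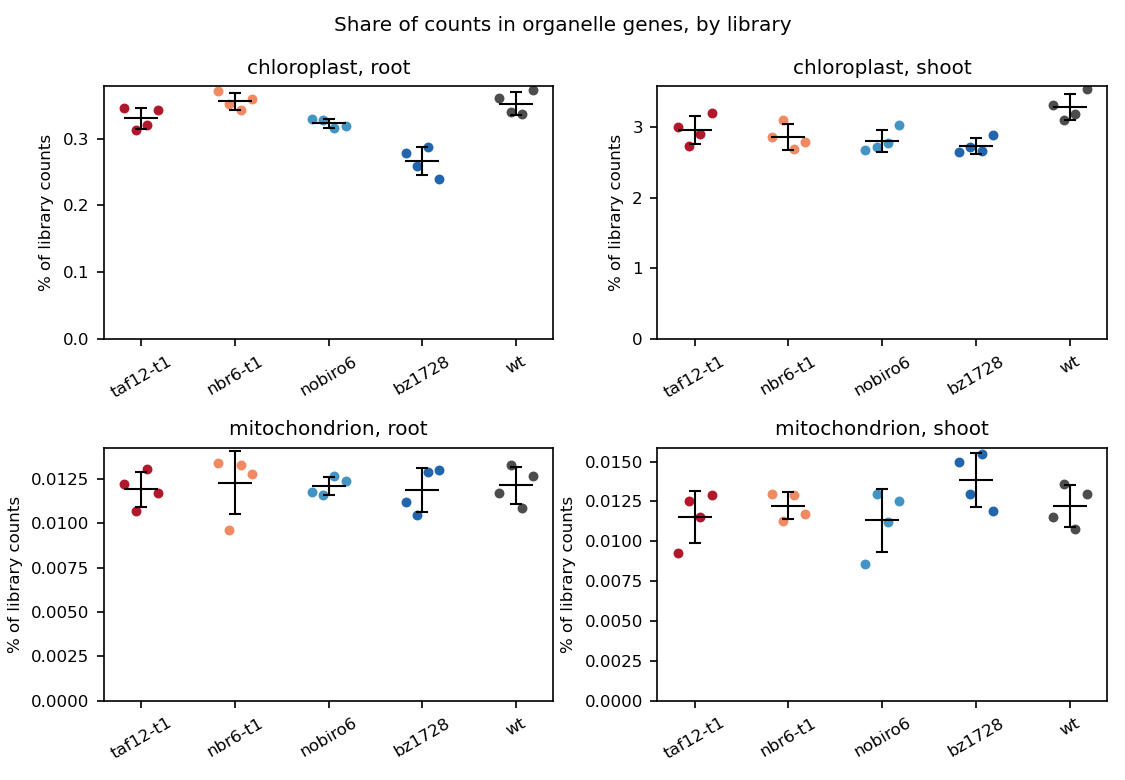
Percent of a library's expected counts in chloroplast genes (top) and mitochondrial genes (bottom), in root (left) and shoot (right). Points are libraries and bars mean ± SD (n = 4); bz1728 roots lie between 0.24 and 0.288% and wt roots between 0.336 and 0.372%.

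Genes of the ATP synthase and of photosystem II were among those that fell in bz1728, with 2 of 2 and 4 of 5 rows tested in root, and 3 of 6 and 5 of 14 in shoot. Over all chloroplast rows tested, 35 of 49 fell in root and 35 of 83 in shoot. atpB had 64.2, 54.1, 62.5 and 52.9 CPM in bz1728 roots, against 117, 117, 116 and 120 CPM in wt roots. The groups lay far apart, and the log2 fold change was -1.0 ± 0.07 (edgeR adjusted p = 8.5e-14). psbD had 14.4, 7.56, 10.5 and 11.4 CPM in bz1728 roots, against 22, 28.8, 21.7 and 22.1 CPM in wt roots (-1.13 ± 0.15, adjusted p = 8.6e-08). In shoot psbZ had 53.8, 54.8, 53.7 and 69.2 CPM in bz1728, against 133, 124, 135 and 142 CPM in wt. Every bz1728 library lay below every wt library, and the log2 fold change was -1.21 ± 0.08 (adjusted p = 7.2e-11). In shoot psbC changed by -1.27, psbD by -1.25, ndhC by -0.94 and atpB by -0.82, each with an adjusted p of 5.8e-06 or less. psbE, a subunit of cytochrome b559 in photosystem II, changed by -1.19 ± 0.22 (adjusted p = 0.00049).

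Ribosomal and polymerase genes were also among those that fell in bz1728. Of the 20 plastid ribosome rows tested in root 18 were lower, with a median of -0.44, and of 25 in shoot 15 were lower, with a median of -0.31. Among all chloroplast rows tested, 35 of 49 were lower in root and 35 of 83 in shoot. rpl2.1 had 142, 118, 134 and 118 CPM in bz1728 roots, against 188, 190, 192 and 207 CPM in wt roots (-0.60 ± 0.07, adjusted p = 3e-09). rpl32, next to ndhF, had 12.2, 8.1, 12.4 and 7.72 CPM in bz1728 roots, against 28, 25.3, 26.3 and 22.3 CPM in wt roots (-1.30 ± 0.16, adjusted p = 5.6e-08). Both genes showed no overlap between groups. Of the 4 polymerase rows, rpoA and rpoC2 fell in root, and rpoA, rpoC1 and rpoC2 in shoot. The rpoC2 call in root (-0.60) was lost when replicate number 2 (-0.49), 3 (-0.47) or 4 (-0.60) was left out, and the rpoC1 call in shoot (-0.43) without number 1 (-0.33), 3 (-0.47) or 4 (-0.28). ycf1.2 fell by 0.27 in root (adjusted p = 0.0011), and in shoot its log2 fold change was -0.08 (adjusted p = 0.55).

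Against this direction, petN, a small subunit of cytochrome b6f, rose in bz1728 shoots. It had 9.11, 5.12, 5.77 and 13.6 CPM in bz1728 shoots, against 2.15, 2.21, 1.82 and 2.02 CPM in wt shoots (2.02 ± 0.33, adjusted p = 0.00015). psaB had 81.9, 69.7, 46.1 and 52.6 CPM in bz1728 shoots, against 39.9, 39.4, 39.6 and 40.5 CPM in wt shoots (0.64 ± 0.20, adjusted p = 0.039). In bz1728 roots psaB was lower, with 1.01, 0.962, 2.35 and 1.14 CPM against 4.75, 3.18, 1.46 and 3.8 CPM in wt roots (-1.31 ± 0.39, adjusted p = 0.0075). The groups did not overlap in shoot and overlapped in root. The shoot call of psaB was lost without replicate number 1 (0.50), 2 (0.58) or 3 (0.76) and with a replicate block (0.63), and the root call without number 1 (-1.02), 2 (-1.17) or 4 (-1.18). psbA and rbcL did not pass the test in bz1728 shoots, with log2 fold changes of 0.69 ± 0.29 and 0.07. psbA nevertheless had 47.4 to 61.2 CPM in bz1728 shoots, with every library above every wt shoot library.

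Between root and shoot, the change in bz1728 differed for 6 chloroplast genes, all lower in root relative to shoot, which is 7.23% of those tested against a background of 10.9% lower and 23% in all. They were psaB at -1.91 ± 0.51 (adjusted p = 0.0057), psbM at -0.52 ± 0.15 (adjusted p = 0.0094), and psbI, rps14, cemA and rpl32. psbM, for example, had 41.6, 33.2, 46.2 and 38.3 CPM in bz1728 roots against 66.3, 66.8, 58.7 and 61.5 CPM in wt roots, but 1895, 2063, 2056 and 2529 CPM in bz1728 shoots against 2304, 2233, 2343 and 2367 CPM in wt shoots. The psbM groups were apart in root and overlapped in shoot. None of the 6 differences held under every alternative run. The count of 6 became 3 without replicate number 1, 2 without number 2, 10 without number 3 and 3 without number 4. Without number 2 the psbM difference was -0.41 and without number 4 it was -0.44, neither of them called, and the psaB difference was -1.50 without number 1 and -1.71 without number 2, likewise not called.

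Among the nuclear genes that serve organelle expression, 2 of the 5 sigma factor genes tested fell in bz1728 roots, SIG1 by 0.62 ± 0.11 (adjusted p = 3.7e-05) and SIG6 by 1.01 ± 0.22 (adjusted p = 0.00029), a count near the 38.9% of all genes called in that comparison, of which 20.7% were lower. In bz1728 shoots SIG1 fell by 0.33 ± 0.07 (adjusted p = 0.0027) and SIG5, a stress- and light-responsive sigma factor linked to psbD transcription, rose by 0.29 ± 0.09 (adjusted p = 0.027). Of the 7 nuclear partner subunits 4 fell in root, among them ATPC1, the gamma subunit of the plastid ATP synthase, at 12.4 ± 2.68 CPM in bz1728 against 30.3 ± 2 CPM in wt (-1.33 ± 0.14, adjusted p = 9.3e-10), and 1 of 7 fell in shoot, where 9.42% of all genes were lower and 17.8% called. The plastid RNA-binding endonuclease gene CSP41B averaged 3.54 ± 0.303 CPM in bz1728 roots and 8.97 ± 1.74 CPM in wt roots (-1.35 ± 0.22, adjusted p = 3.6e-06). The 9 shoot markers summed to 62.8 to 141 CPM in bz1728 roots against 150 to 169 CPM in wt roots, and to 12949 to 20925 CPM in bz1728 shoots against 19747 to 22564 CPM in wt shoots. The 7 root markers summed to 5634 to 7112 CPM in bz1728 roots against 8629 to 8954 CPM in wt roots. In shoots they summed to 227 to 365 CPM in bz1728 against 267 to 612 CPM in wt. Such sums follow the most abundant markers. By single gene, 3 of the 7 root markers were called higher and 3 lower in bz1728 roots. Of the 9 shoot markers, 1 was called higher and 4 lower in bz1728 shoots. The part of either list in the chloroplast result was not tested.

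In the libraries labelled nobiro6, several of the genes that fell in bz1728 lay between bz1728 and wt, most clearly in root. Against bz1728, 16 of 49 chloroplast genes were higher in root and none lower, against a background of 12.8% higher and 31.7% in all. In shoot 6 of 83 were higher and none lower, 7.23% against a background of 8.12% higher and 21% in all, so the share of called genes in shoot was near the background. The median log2 fold changes were 0.24 in root and 0.11 in shoot, against 0.03 and 0.02 for all genes. Scaled to the chloroplast total, 3 were higher and none lower in root, and 5 higher and 2 lower in shoot. Against wt, 22 of 49 were lower and none higher in root, where 23.9% of all genes were lower and 42.8% called, and 25 of 83 were lower and 1 higher in shoot, where 8.47% were lower, 3.66% higher and 12.1% called. Scaled to the chloroplast total, 1 was higher and 3 lower against wt in root, and 21 higher and 11 lower in shoot. The comparisons share their libraries, so they are not independent of each other.

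psbD had 20.6, 20.9, 20.5 and 20 CPM in the root libraries labelled nobiro6, against 14.4, 7.56, 10.5 and 11.4 CPM in bz1728 (0.91 ± 0.16, adjusted p = 1.9e-05). These lay just below the lowest wt library at 21.7 CPM. atpB had 75, 80.3, 75 and 72.3 CPM in nobiro6 roots, above all bz1728 roots (0.37 ± 0.08, adjusted p = 0.00017) and below all wt roots (-0.63 ± 0.07, adjusted p = 5.4e-09). In shoot psbZ had 90.4, 93.5, 91.7 and 87.7 CPM in nobiro6, likewise between the groups (0.65 ± 0.08 against bz1728, adjusted p = 2e-06, and -0.56 ± 0.08 against wt, adjusted p = 1.4e-05). psbC rose by 0.44 and ndhB.1 by 0.31 against bz1728 in shoot (adjusted p = 0.0015 and 0.035), and ndhB.1 was not called without replicate number 1 (0.31), 2 (0.34) or 3 (0.29). The 16 calls in root became 9 without number 2 and 8 without number 4, the 6 in shoot became 2 without number 1 and 3 without number 3, and against wt the 22 in root became 10 without number 4 and the 26 in shoot became 16 without number 1. atpB in shoot had 1585, 1783, 1800 and 2060 CPM in nobiro6 and 1466, 1814, 1796 and 2033 CPM in bz1728, which overlap (0.02 ± 0.10, adjusted p = 0.90), and both groups lay below wt with 3290, 2686, 3142 and 3413 CPM. The nobiro6 against bz1728 change in atpB differed between root and shoot by 0.39 (adjusted p = 0.047), 1 of 5 chloroplast genes with such a difference, all higher in root relative to shoot (6.02%, against a background of 8.74% higher, 7.1% lower and 15.8% in all). It was not called without replicate number 2 (0.30), 3 (0.41) or 4 (0.36), nor by DESeq2 (0.34), and the count of 5 became 2 without number 1, 1 without number 2 and 1 without number 4. petN was also higher than wt in nobiro6 shoots, with 6.41, 2.55, 7.06 and 10.3 CPM (1.69 ± 0.34 against wt, adjusted p = 0.0014).

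Some genes of the nuclear lists were also called. In root 1 of 5 sigma factor genes, 1 of 12 genes of polymerase-associated proteins, 2 of 7 organelle nuclease genes and 3 of 7 partner subunits rose. No gene of these lists fell there, and no phage-type polymerase gene was called. The background in root was 12.8% higher and 31.7% in all. Against bz1728, CSP41B averaged 10.4 ± 1.36 CPM in nobiro6 roots and 3.54 ± 0.303 CPM in bz1728 roots (1.56 ± 0.22, adjusted p = 7.6e-07), PETC, the Rieske protein of cytochrome b6f, rose by 0.86 ± 0.20 (adjusted p = 0.001) and ATPC1 by 0.65 ± 0.15 (adjusted p = 0.001). In shoot SIG1 rose by 0.32, while SIG5 fell by 0.41 and SIG4 fell by 0.49 (adjusted p of 0.0029 or less). Of 7 nuclease genes 3 fell in shoot, and of 12 genes of polymerase-associated proteins 1 rose and 1 fell. No partner subunit or phage-type polymerase gene was called in shoot, where 12.8% of all genes were lower and 21% called. The shoot markers summed to 143 to 175 CPM in nobiro6 roots, against 62.8 to 141 CPM in bz1728 roots. The root markers summed to 4965 to 5586 CPM in nobiro6 roots, against 5634 to 7112 CPM in bz1728 roots. In shoots they summed to 87 to 155 CPM in nobiro6, against 227 to 365 CPM in bz1728. By single gene, 1 of 7 root markers was called higher and 3 lower in nobiro6 roots against bz1728 roots. The part of either list in the chloroplast result was not tested.

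**Figure D3:**
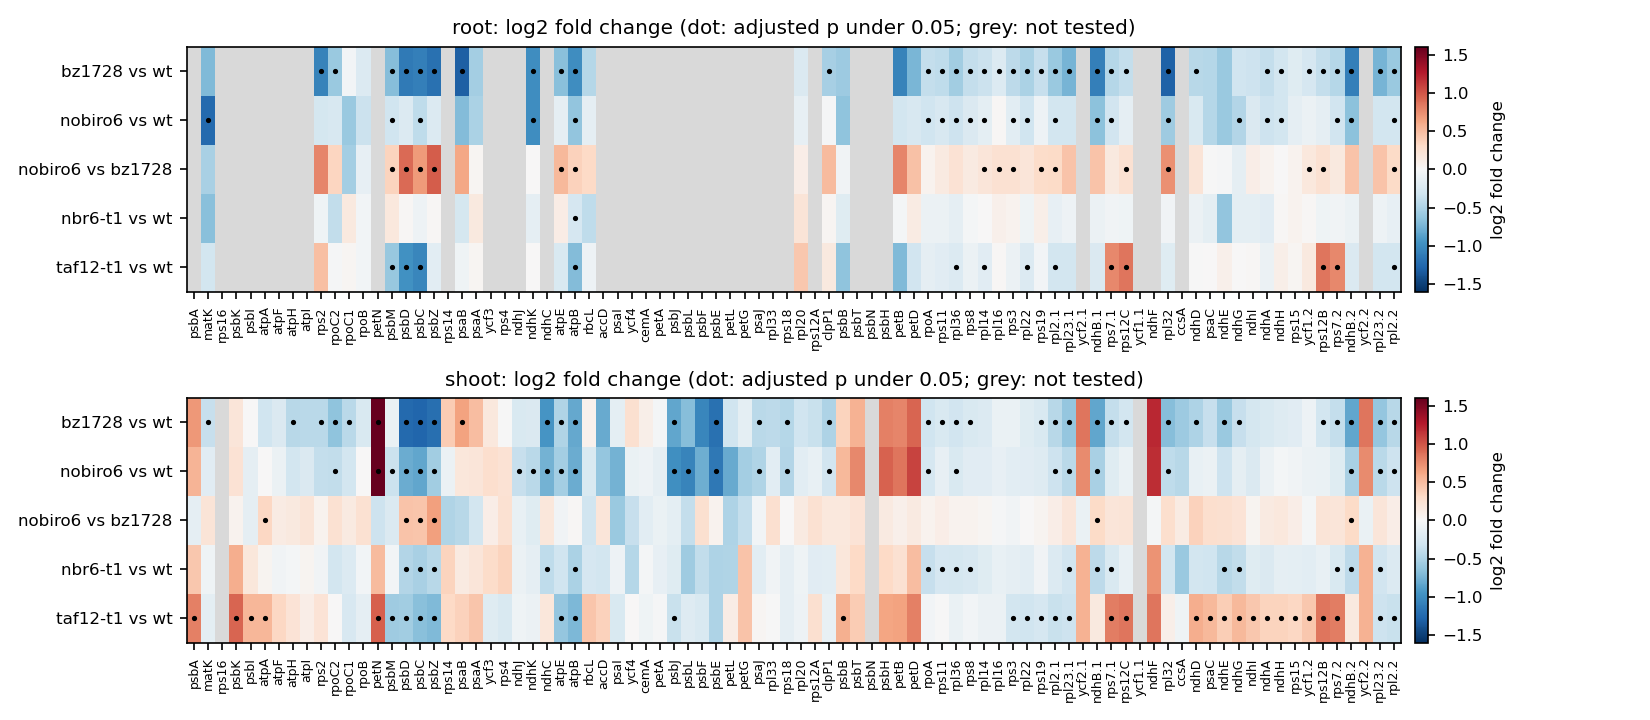
Log2 fold change of each chloroplast gene (columns, in RefSeq gene order) in 5 comparisons (rows), root above and shoot below; dots mark an edgeR adjusted p under 0.05, grey marks rows not tested, and colours stop at the ends of the scale. psbD, psbC and psbZ are blue in bz1728 against wt in both tissues, and the rps7 and rps12 columns are red in taf12-t1 against wt.

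In nbr6-t1 few chloroplast genes passed the test in root, and a minority passed in shoot, all of them lower. In root atpB was the only one of 49 called, 2.04% against a background of 13.5% lower, 6.96% higher and 20.5% in all. It had 93.8, 93, 96.1 and 111 CPM in root libraries labelled nbr6-t1, against 117, 117, 116 and 120 CPM in wt (-0.27 ± 0.07, adjusted p = 0.0049). In shoot 17 of 83 were lower and none higher, with 63 below 0 and 20 above, 20.5% of those tested against a background of 5.94% lower and 7.5% in all, with a median of -0.17 against 0.00. The chloroplast share of counts was 2.68 to 3.1% in nbr6-t1 shoots against 3.1 to 3.53% in wt shoots, which overlap. psbZ had 97.5, 107, 92.6 and 96.7 CPM in nbr6-t1 shoots, against 133, 124, 135 and 142 CPM in wt shoots (-0.44 ± 0.07, adjusted p = 0.00037). psbC fell by 0.52 ± 0.09 (adjusted p = 0.00073), atpB fell by 0.51 ± 0.10 (adjusted p = 0.0019) and rpoA fell by 0.37 ± 0.07 (adjusted p = 0.0013), and the groups were apart for all of these. Without 1 replicate number the count of 17 became 7 without number 1, 8 without number 3 and 8 without number 4, and scaled to the chloroplast total 5 were higher and 2 lower. No chloroplast gene had a root change unlike its shoot change by edgeR, 0% against a background of 1.77% higher, 0.63% lower and 2.4% in all, where 16 had an unadjusted p under 0.05 and DESeq2 also called none. No sigma factor gene was called by edgeR, of 5 tested in root and 6 in shoot. All 5 shoot markers tested were higher in nbr6-t1 roots, where the 9 markers summed to 228 to 282 CPM against 150 to 169 CPM in wt roots. The root markers summed to 6028 to 8029 CPM in nbr6-t1 roots against 8629 to 8954 CPM in wt roots. In shoots they summed to 163 to 216 CPM in nbr6-t1 against 267 to 612 CPM in wt. By single gene, 1 of 7 root markers was called higher and 2 lower in nbr6-t1 roots, with a median of 0.06. The part of either list in the chloroplast result was not tested.

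In taf12-t1 chloroplast genes were called in both directions in each tissue. In root 4 chloroplast rows were higher and 9 lower of 49, against a background of 19.5% higher, 19.8% lower and 39.2% in all. In shoot 19 were higher and 14 lower of 83, which is 39.8% of those tested against a background of 20.3% higher, 20.4% lower and 40.6% in all, so that the number of calls was near the background. The medians were -0.10 in root and 0.09 in shoot. Scaled to the chloroplast total, 4 were higher and 8 lower in root, and 22 higher and 13 lower in shoot.

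The rows that rose in both tissues of taf12-t1 were rps7 and the part of rps12 beside it in the inverted repeat, both small ribosomal subunit proteins. rps7.1 had 127, 112, 116 and 125 CPM in taf12-t1 roots, against 70.5, 71.1, 65.8 and 73 CPM in wt roots (0.77 ± 0.07, adjusted p = 1.7e-10). In shoot it had 1119, 1181, 1126 and 1329 CPM in taf12-t1, against 635, 634, 659 and 758 CPM in wt (0.82 ± 0.08, adjusted p = 1e-08). The groups stood apart in both tissues. rps12C rose by 0.86 in root (adjusted p = 3.8e-10) and by 0.86 in shoot (adjusted p = 5.2e-08). ndhB.1, the other neighbour of rps7, had log2 fold changes of -0.23 in root (adjusted p = 0.45) and 0.16 in shoot (adjusted p = 0.22).

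A further block rose in taf12-t1 shoots. ycf1.2 had 4024, 3949, 4029 and 4354 CPM in taf12-t1 shoots, against 3356, 2818, 2997 and 2983 CPM in wt shoots (0.43 ± 0.08, adjusted p = 9.9e-05). All 8 genes that follow it in the order of transcription rose as well, rps15 by 0.33, ndhH by 0.36, ndhA by 0.35, ndhI by 0.43, ndhG by 0.52, ndhE by 0.39, psaC by 0.52 and ndhD by 0.58, each with an adjusted p of 0.014 or less. The ndhE call was lost without replicate number 2 (0.35), 3 (0.25) or 4 (0.36), and the psaC call without number 3 (0.32). In taf12-t1 roots none of these 9 was called, with ycf1.2 at 0.16 (adjusted p = 0.053). For ndhA the change differed between the tissues, by -0.42 ± 0.15 in root relative to shoot (adjusted p = 0.043), 1 of 2 chloroplast genes with such a difference, both lower (2.41%, against a background of 10.5% lower, 9.8% higher and 20.3% in all). It was not called without replicate number 1 (-0.52), 3 (-0.21) or 4 (-0.43), and the count of 2 became 0 without number 1, 4 without number 2, 0 without number 3 and 1 without number 4. atpA, psbA, psbB, psbI, psbK and petN were the other rows that rose in shoot. psbA had 49.9, 32.1, 48.2 and 103 CPM in taf12-t1 shoots, against 32, 36.8, 34.1 and 29.3 CPM in wt shoots (0.80 ± 0.29, adjusted p = 0.039), which overlap. Its call was lost without replicate number 4, where the change was 0.33, without number 1 (0.85) or 3 (0.90), and with a replicate block (0.75). The petN call (0.96) was lost without number 1 (1.04), 3 (0.88) or 4 (0.84).

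**Figure D4:**
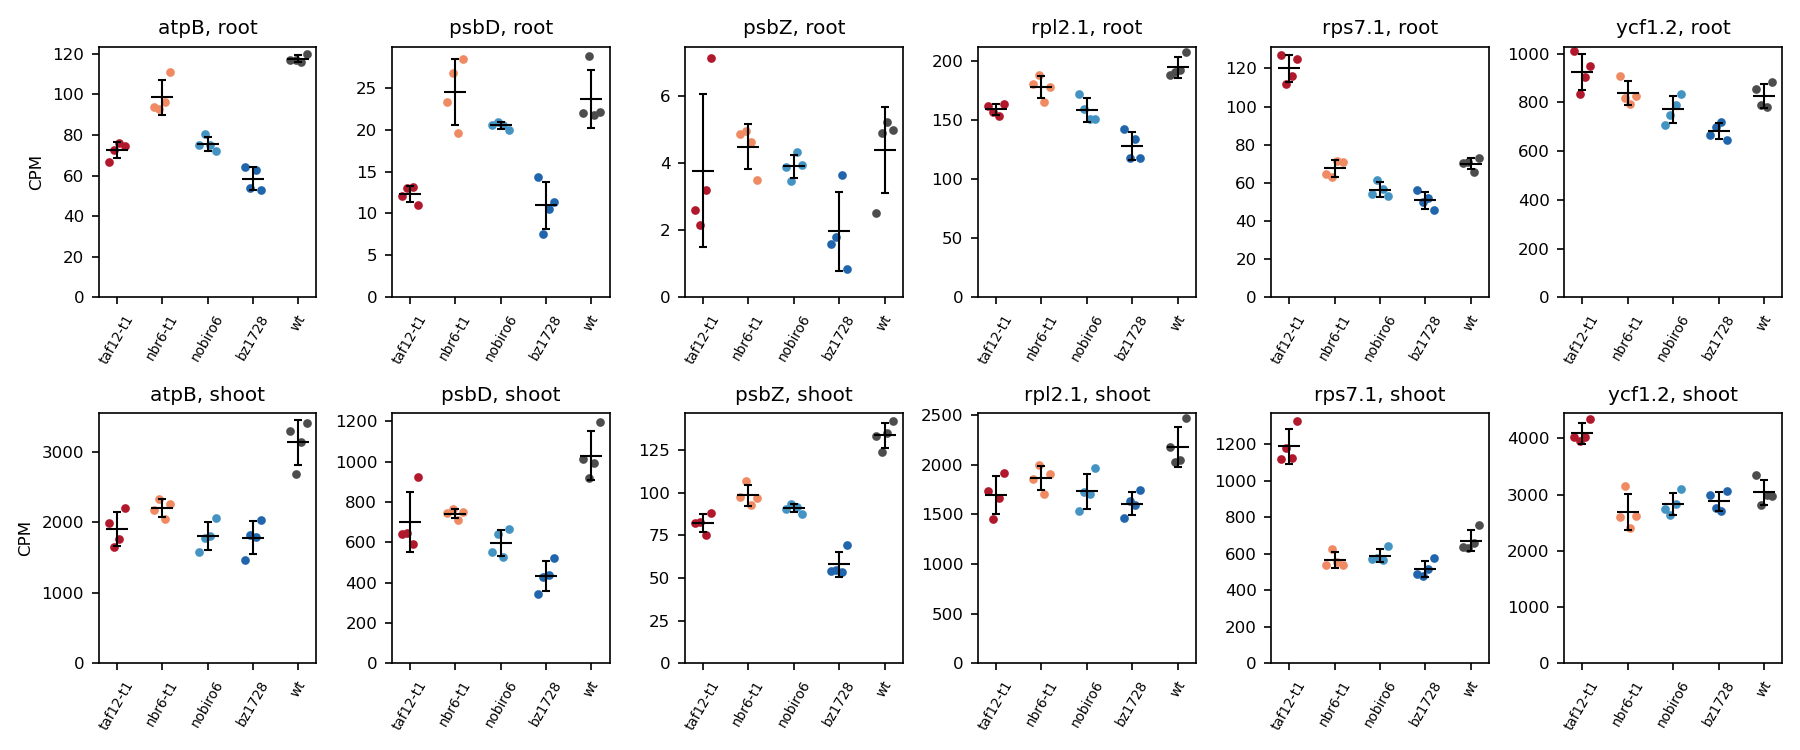
CPM of 6 chloroplast genes in each root library (top) and shoot library (bottom) of the 5 genotypes; points are libraries and bars mean ± SD (n = 4), with a zero-based axis of its own in each panel. rps7.1 is highest in taf12-t1 in both tissues, and atpB is highest in wt in both.

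Among the genes that fell in taf12-t1 were atpB, the psbD operon and psbM, with rows of the ribosomal protein cluster such as rpl2 and rpl22 beside them. atpB had 66.7, 72.8, 76.1 and 74.4 CPM in taf12-t1 roots, against 117, 117, 116 and 120 CPM in wt roots (-0.70 ± 0.07, edgeR adjusted p = 2e-09), and 1986, 1653, 1762 and 2199 CPM in taf12-t1 shoots, against 3290, 2686, 3142 and 3413 CPM in wt shoots (-0.72 ± 0.10, adjusted p = 3.9e-06). psbC changed by -1.05 in root and -0.67 in shoot, psbD by -0.97 and -0.56, and psbM by -0.61 and -0.57. psbZ fell by 0.71 ± 0.08 in shoot (adjusted p = 7.2e-08), and in root it had 2.6, 2.17, 3.21 and 7.15 CPM in taf12-t1 against 2.5, 4.89, 5.22 and 4.98 CPM in wt (-0.17, adjusted p = 0.71). All lines were compared with the same wt libraries.

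Genes of the nuclear lists were called in both directions in taf12-t1. SIG3 averaged 5.96 ± 1.09 CPM in taf12-t1 roots and 13.2 ± 3.05 CPM in wt roots (-1.15 ± 0.19, adjusted p = 1.1e-05), and SIG5 fell by 0.62 ± 0.19 (adjusted p = 0.015). In shoot SIG3 fell by 0.40 ± 0.08 and SIG5 fell by 0.37 ± 0.09, while SIG4 rose by 0.50 ± 0.09 (adjusted p of 0.0026 or less). Of the 7 nuclease genes, 2 rose and 2 fell in root, and 4 rose and 1 fell in shoot, against backgrounds of 39.2% of all genes called in root and 40.6% in shoot, so the count in root was near what all genes showed. AT5G63420, listed as an organelle nuclease, rose by 1.05 ± 0.09 in shoot (adjusted p = 1.8e-09), and CSP41B rose by 0.60 in shoot but fell by 0.76 in root (adjusted p = 8.7e-07 and 0.0055). Of the 7 nuclear partner subunits, 4 rose and 1 fell in shoot, with a median of 0.32. In root 0 rose and 3 fell, with a median of -0.51, a count near the background there. RBCS1A, the small subunit of Rubisco, rose by 0.50 ± 0.08 in shoot (adjusted p = 1.4e-05). There rbcL had 83.8, 68.1, 64.4 and 166 CPM in taf12-t1 against 69.6, 63.9, 72.1 and 73.2 CPM in wt and did not pass the test (0.44). The 9 shoot markers, 5 of them light-harvesting genes, summed to 10620 to 14548 CPM in taf12-t1 shoots against 19747 to 22564 CPM in wt shoots, and to 50 to 77.6 CPM in taf12-t1 roots against 150 to 169 CPM in wt roots. The root markers summed to 8080 to 9070 CPM in taf12-t1 roots against 8629 to 8954 CPM in wt roots. In shoots they summed to 687 to 865 CPM in taf12-t1 against 267 to 612 CPM in wt. By single gene, 1 of 9 shoot markers was called higher and 6 lower in taf12-t1 shoots. Of the 7 root markers, 0 were called higher and 2 lower in taf12-t1 roots. The part of either list in the chloroplast result was not tested.

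Mitochondrial genes took 0.0086 to 0.0155% of counts in all 40 libraries, and this share overlapped between every mutant and its wild type in both tissues. Only 25 of 122 rows passed the filter on low counts in root and 26 in shoot. In wt roots against wt shoots, 2 of 29 were higher and 11 lower, with backgrounds of 39.2% and 39.8%. Scaled to the mitochondrial total, which moved the median of all genes to 0.64, 8 were higher and 7 lower. nad4, a subunit of complex I, averaged 4.18 ± 1.1 CPM in wt roots and 18.8 ± 1.41 CPM in wt shoots (-2.19 ± 0.21, adjusted p = 1.2e-12), and 91.6% of its 31-mers were in nuclear transcripts. nad9, another complex I subunit with no shared 31-mer, averaged 4.22 ± 0.634 CPM in wt roots and 2.76 ± 0.512 CPM in wt shoots (0.62 ± 0.25, adjusted p = 0.021), and was not called without replicate number 2 (0.53) or 4 (0.57). ccmFN1, which serves cytochrome c maturation, was the leading mitochondrial row by TPM in roots, with a mean of 30.1 over 20 libraries, and averaged 15.9 ± 3.89 CPM in wt roots and 13.9 ± 3.49 CPM in wt shoots (0.24 ± 0.22, adjusted p = 0.33).

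**Figure D5:**
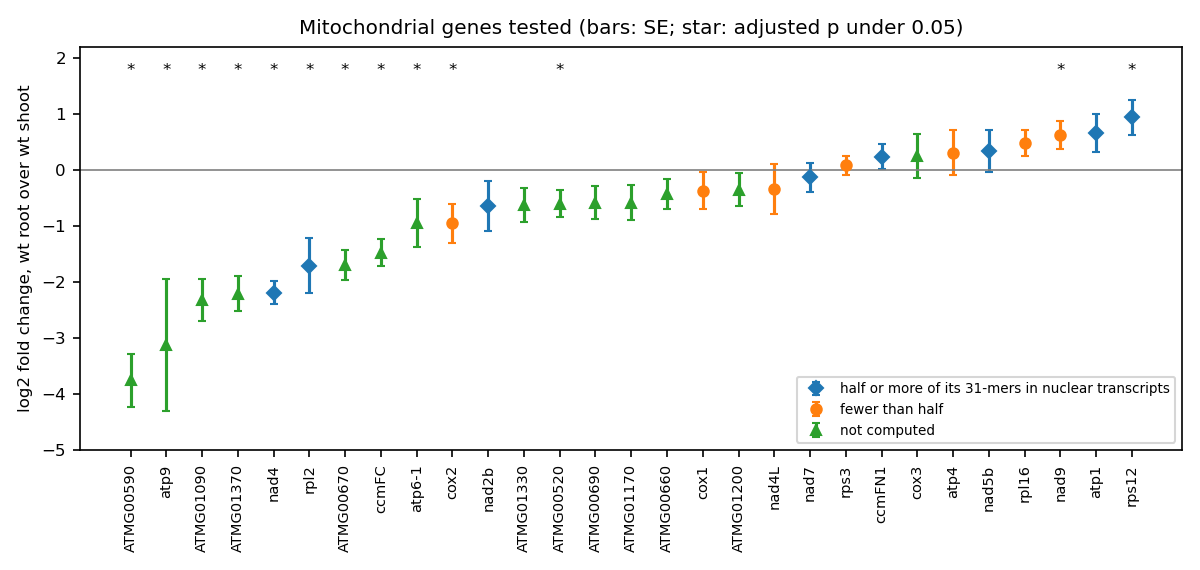
Log2 fold change of the 29 mitochondrial genes tested, wt root over wt shoot, with standard errors; stars mark an edgeR adjusted p under 0.05 and symbols the share of a gene's 31-mers found in nuclear transcripts. nad4 lies at -2.19 and nad9 at 0.62.

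Few mitochondrial genes differed between genotypes. In bz1728 roots 1 of 25 was lower (4%, against 38.9% of all genes called), rps3, with 6.33, 9.2, 10.5 and 9.15 CPM against 12, 12.6, 14 and 13 CPM in wt roots (-0.58 ± 0.16, adjusted p = 0.0037). It had 10.4, 13.4, 13 and 14.3 CPM in nobiro6 roots, higher than in bz1728 (0.55 ± 0.17, adjusted p = 0.01), 1 of 25 called there. In bz1728 and nobiro6 shoots and in nobiro6 and taf12-t1 roots against wt, edgeR called none, with 4, 3, 2 and 1 unadjusted p under 0.05, and DESeq2 also called none. In root libraries labelled nbr6-t1 rpl16 fell, with 3.35, 2.83, 6.24 and 2.46 CPM against 6.75, 5.87, 7.52 and 6.42 CPM in wt roots (-0.81 ± 0.25, adjusted p = 0.017), which overlap, and leaving out replicate number 1 (-0.74), 2 (-0.75) or 4 (-0.73) ended that call. No gene was called in nbr6-t1 shoots, where no unadjusted p was under 0.05. In shoots labelled nobiro6, nad2b was lower than in bz1728, with 0.337, 0.464, 0.83 and 0.22 CPM against 1.38, 2.35, 2.25 and 1.4 CPM (-1.99 ± 0.50, adjusted p = 0.0057), a call lost without replicate number 2 (-1.87). The nad2b values rest on few counts, with a mean of 7.22 per library over all libraries. Of its 31-mers, 60.7% were in nuclear AT2G07689, whose row averaged 3.75 counts. In taf12-t1 shoots 4 of 26 were called (15.4%, against 40.6%). nad4 had 5.62, 9.21, 7.69 and 9.55 CPM in taf12-t1 shoots, against 14.9, 15, 13.4 and 16.5 CPM in wt shoots (-0.90 ± 0.20, adjusted p = 0.00093). atp4, of the ATP synthase, had 2.5, 2.57, 1.92 and 1.71 CPM in taf12-t1 shoots against 1.26, 0.663, 0.632 and 0.944 CPM in wt shoots (1.33 ± 0.41, adjusted p = 0.011), a call lost without replicate number 3 (1.24). ATMG01170 rose by 1.03. ATMG00590 fell by 0.94, a call lost without replicate number 1 (-0.68), 2 (-1.01) or 4 (-0.90). Neither code is given a role here. The core respiratory rows cox1, cox2 and cox3 of complex IV were called in no mutant.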

How the data were processed

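Reads were trimmed with Trimmomatic 0.39 and quantified with kallisto 0.44.0, per the submitters' processing notes. The authors deposited expected counts (estimated counts of reads per transcript, not depth-scaled) and TPM per library, 27655 transcripts each; 97.7 to 98.5% of expected counts were whole within 1e-06. The genome build is not given in the sources used here. The members and gene lists were chosen with earlier results of these data known.

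Expected counts were rounded and fitted in edgeR 4.0.16 (R 4.3.3) with TMM factors, filterByExpr (count 10, total 15) and robust two-sided quasi-likelihood F-tests, 20 libraries per tissue together, or all 40 for root against shoot and for differences between tissues. A gene was called where its Benjamini-Hochberg adjusted p, over every gene tested, was under 0.05 (18745 in root, 17382 in shoot, 20015 over both). CPM are counts scaled by TMM to 1e+06 within a fit; CPM per kilobase divides by the deposited length. A log2 fold change is given with its standard error, the absolute change over the square root of F. Counts pool multi-mapping reads by kallisto's estimate; 31-mers, kallisto's default length, were compared between RefSeq sequences. Self-tests on simulated counts were run.

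Named genes are fixed core genes of each complex, the 5 highest rows by TPM, and for each comparison and genome up to 4 called each way with the smallest adjusted p, copies taken once; values of other rows were added after they were seen where a block or a contrast needed them. Alternatives were RLE factors, DESeq2 1.42.0, no filter, nuclear or organelle scaling, a replicate block, each replicate left out, limma 3.58.1 on log2(TPM + 0.5), and fits of only the groups compared. No 2 libraries were alike within sampling noise (chi-square per gene 1.76 to 8.64 between replicates).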

Additional observations from a re-analysis of the deposited data

Results flagged for a closer look

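Among 215 groups of 4 libraries tested for a library far from the other 3, 13 had one, where chance gives about 1 in 20. In taf12-t1 shoots replicate 4 stood above the others for psbD at 923 CPM, psaA at 88.4 CPM and atpA at 78.8 CPM, and replicate 2 stood below for psbB at 41.1 CPM. Others were ndhF at 33.6 CPM in wt shoot replicate 3, psbD at 28.8 CPM in wt root replicate 2, accD at 2.35 CPM in bz1728 shoot replicate 2, psaB at 2.35 CPM in bz1728 root replicate 3, psbA at 24.6 CPM and atp1 at 0 CPM in nbr6-t1 shoot replicates 1 and 4, nad4 at 6.93 CPM in nbr6-t1 root replicate 3, psbB at 3.53 CPM in taf12-t1 root replicate 3, and the mitochondrial share of 0.00965% in nbr6-t1 root replicate 2.

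A change that was unequal in root and shoot, by an interaction test in edgeR, was found for 16 rows, given here as the log2 fold change in root minus that in shoot. For bz1728 against wt these were psbI at -3.59, rps14 at -1.95, psaB at -1.91, cemA at -1.49, rpl32 at -0.58 and psbM at -0.52, with mitochondrial rps3 at -0.81. For nobiro6 against bz1728 they were psbL at 3.52, psbM at 0.62, atpE at 0.62, atpB at 0.39, chloroplast rps3 at 0.34 and mitochondrial rps3 at 0.79. For taf12-t1 against wt they were psbJ at -2.40, ndhA at -0.42 and mitochondrial ATMG01170 at -1.82. psbI, psbL, psbJ, rps14 and cemA had at most 2.09 CPM in any root library, so their values rest on few counts.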

How the results depend on the processing

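Deviations of same-numbered libraries had a median correlation of 0.0148 in root (-0.0655 to 0.0968) and -0.00537 in shoot (-0.305 to 0.247). For libraries of different number the medians were -0.00948 and -0.000116. No pairing by number was seen, but such correlations cannot exclude that same-numbered libraries were prepared together. With the replicate number as a block, mitochondrial calls in nobiro6 against wt in root were 1 against 0, chloroplast counts such as 35 of 49 in bz1728 roots stayed within 1.5 times, and 7 of 326 single-gene calls were lost. Mitochondrial values rest on few counts, and depth limits what can be called there. The cause was not tested for any change given here.

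Taken from TPM in place of counts, the ratio of chloroplast shares was 0.694 for bz1728 over wt in root (0.758 from counts), 0.877 for nobiro6 over wt in root (0.918), 1.26 for nobiro6 over bz1728 in root (1.21), 0.888 for taf12-t1 over wt in root (0.939), 0.879 for bz1728 over wt in shoot (0.832) and 0.928 for nbr6-t1 over wt in shoot (0.871).

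Chloroplast calls under scaling to the chloroplast total were 13 in bz1728 roots, 4 in nobiro6 against wt and 3 against bz1728 in root, 7 in nbr6-t1 shoots and 54 for wt root against shoot, and for the difference between tissues 2 in nobiro6 against bz1728, 1 in nbr6-t1 and 6 in taf12-t1. With limma on TPM they were 13 in nobiro6 against wt in root and 20 in taf12-t1 roots, and for the difference between tissues 20 in bz1728, 11 in nobiro6 against bz1728, 1 in nbr6-t1 and 7 in taf12-t1. Without a filter they were 2 in nbr6-t1 roots, and between tissues 3 in nobiro6 against bz1728 and 1 in taf12-t1. With only the groups compared they were 2 in nbr6-t1 roots, and between tissues 12 in bz1728, 2 in nobiro6 against bz1728 and 5 in taf12-t1. Between tissues DESeq2 gave 13 in bz1728, 3 in nobiro6 against bz1728 and 7 in taf12-t1, and RLE factors gave 2 in nobiro6 against bz1728 and 6 in taf12-t1.

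Mitochondrial calls with no filter were 1 in nobiro6 against wt and 2 against bz1728 in root, 1 in taf12-t1 roots, 2 in nobiro6 against bz1728 in shoot, 8 in taf12-t1 shoots and 20 for wt root against shoot. With limma on TPM they were 2 in nobiro6 against bz1728 in root, 1 in taf12-t1 roots and 1 in nbr6-t1 between tissues. With only the groups compared they were 2 in bz1728 roots, 2 in nbr6-t1 roots, 1 in bz1728 shoots, and 0 in nobiro6 against bz1728 in shoot and between tissues. Scaling from nuclear genes gave 2 in bz1728 roots, and scaling to the mitochondrial total gave 1 in bz1728 shoots, 2 in nobiro6 against bz1728 in shoot and 0 in bz1728 between tissues. Of the rows tested, 3 in root and over both tissues and 2 in shoot share no 31-mer, and among them 1 was called for wt root against shoot, 1 in taf12-t1 shoots, and 0 in bz1728 roots, nobiro6 against bz1728 in root and shoot, nbr6-t1 roots, and bz1728, nobiro6 against bz1728 and taf12-t1 between tissues.

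With 1 replicate number left out in turn, the ratio of chloroplast shares in root ran from 0.903 to 0.94 for nobiro6 over wt and from 1.18 to 1.25 for nobiro6 over bz1728, and that of mitochondrial shares from 0.951 to 1.05 for nobiro6 over wt in root. Chloroplast calls ran from 10 to 16 in nobiro6 against wt and 8 to 16 against bz1728 in root, 16 to 23 in nobiro6 against wt and 2 to 7 against bz1728 in shoot, and 7 to 16 in nbr6-t1 shoots. Between tissues they ran from 2 to 10 in bz1728, 1 to 4 in nobiro6 against bz1728 and 0 to 4 in taf12-t1. Mitochondrial calls ran from 1 to 2 in bz1728 roots, 0 to 1 in nobiro6 against wt in root, 0 to 1 in nbr6-t1 roots, 0 to 2 in taf12-t1 roots, 0 to 2 in bz1728 shoots, 0 to 2 in nobiro6 against bz1728 in shoot and 2 to 4 in taf12-t1 shoots, and between tissues from 0 to 1 in bz1728 and in nobiro6 against bz1728 and 0 to 2 in taf12-t1.

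Under every whole-library alternative run, the chloroplast calls that held were 26 of 35 in bz1728, 8 of 22 in nobiro6 against wt, 5 of 16 in nobiro6 against bz1728, 1 of 1 in nbr6-t1 and 10 of 13 in taf12-t1 in root, and 22 of 37, 14 of 26, 2 of 6, 4 of 17 and 26 of 33 in the same comparisons in shoot. Of the differences between tissues, 0 of 6 held in bz1728, 0 of 5 in nobiro6 against bz1728 and 0 of 2 in taf12-t1. Of the 4 mitochondrial calls in taf12-t1 shoots 2 held, and of the 13 for wt root against shoot 5 held. For wt root against shoot limma on TPM reversed cox2 to 0.04, atp6-1 to 0.03 and ATMG00520 to 0.36, where the median of all genes was 0.99.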

Other observations

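In shoots the NDH subunit gene ndhF stood at 1 of 2 levels, with no library between them. It had 6.08 to 10.5 CPM in 6 libraries, namely wt replicates 1, 2 and 4, nbr6-t1 replicate 1 and taf12-t1 replicates 2 and 4, and 26.2 to 46.8 CPM in the other 14. The inverted-repeat gene ycf2, which is transcribed in part by the phage-type polymerase, had 3.56 to 7.34 CPM in the same 6 libraries and 9.05 to 14.5 CPM in the other 14. The split runs within wt, nbr6-t1 and taf12-t1, whereas all bz1728 and nobiro6 shoot libraries are in the higher set. Libraries numbered 1, 2 and 4 occur on both sides, and those numbered 3 only on the higher. The 2 sets were picked out after their values were seen, and no comparison was made between them.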
